A study of Mus musculus with 2 samples.

Results

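Among brain myeloid cells of mice with stroke, 349 of 22960 cells passed a count gate for microglia and carried transcripts of Ch25h or Cd5l and none of Ms4a7. Ch25h encodes cholesterol 25-hydroxylase, which makes the oxysterol 25-hydroxycholesterol. Cd5l encodes a secreted protein of macrophages that binds lipids. The cells were chosen by a count rule. A barcode counted as a cell with at least 1000 unique molecular identifiers (UMIs, one per captured transcript), 500 or more genes and no more than 10% mitochondrial UMIs. A cell passed the microglia gate with at least 10 UMIs per 10000 of P2ry12, Tmem119, Sparc, Gpr34, Olfml3 and Siglech together, 0 UMIs of Ms4a7 (a macrophage gene), fewer than 3 UMIs of the cell cycle genes Mki67, Top2a, Birc5 and Ube2c, and fewer than 20 UMIs per 10000 of the neutrophil genes S100a8 and S100a9. Gate cells with at least 2 UMIs of Ch25h and Cd5l together are called members below. Gate cells with 0 such UMIs are called zero microglia.

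The study has 1 group with 2 replicate libraries of the ischemic brain of Foxp3Egfp mice, a strain with a fluorescent reporter at the regulatory T cell gene Foxp3, aged 6 to 8 weeks. Cells were sorted as CD45+CD11b+CD3-F4/80+, a gate for macrophages and microglia without T cells, and captured with the Chromium 3' v3 kit. There is no uninjured group, so no value here is a response to stroke. Per the labels, cDNA of stroke mice was pooled for sequencing. Whether the libraries came from different animals is not stated. A p-value here rests on how far differences between sets of cells varied between these libraries, pooled over the sets of a fit. That spread may be technical.

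Microglia are the resident macrophages of the brain. When they take up myelin and cell debris after injury they can store the lipid as droplets, break it down in lysosomes and export cholesterol on apolipoprotein E. Microglia in this state, often called disease-associated or lipid-associated, are known to raise Apoe, Lpl, Cst7, Igf1 and Spp1 and to lower P2ry12 and Cx3cr1.

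Replicate 1 held 101893367 UMIs and replicate 2 62850768 UMIs, in 15050 and 7910 cells with a median of 5356 and 5891.5 UMIs. There were 31 barcodes that were cells in both libraries, and 0 members were among them. Members were 207 of the 6256 gate cells of replicate 1, or 3.31% (exact binomial 95% interval 2.88 to 3.78), and 142 of the 5259 gate cells of replicate 2, or 2.70% (2.28 to 3.17). Intervals on cells and UMIs cover counting error only. The counts on either side of the threshold were 369 and 199 cells with 1 UMI, just outside, and 92 and 59 cells with 2 UMIs, just inside. The highest sum in a cell was 21 UMIs in each library.

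The rule counts UMIs without regard to depth, so it takes more of the deep cells. Members had a median of 7699 and 13351 UMIs and zero microglia of 3310.5 and 4995.5. In replicate 1 the share of members was 0.179% among gate cells with 1000 to 2000 UMIs, 1.12% with 2000 to 5000, 7.23% with 5000 to 10000 and 14.0% above that. In replicate 2 these shares were 1.49% (3 of 202 cells), 0.174%, 1.79% and 10.6%. With each gate cell of at least 2000 UMIs thinned to 2000 UMIs for Ch25h and Cd5l, 1.31% and 0.297% had 2 or more. The share of members therefore cannot be read as the share of microglia in a state, and the counts of genes that passed against zero microglia are given below also at equal depth.

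**Figure D1:**
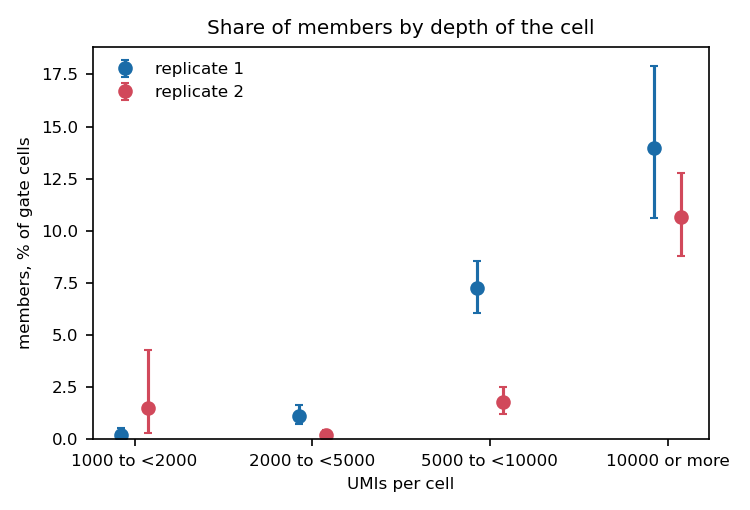
Share of members among gate cells (percent, y axis) by UMIs per cell (x axis) in each library, with exact binomial 95% intervals. In both libraries the cells of at least 10000 UMIs held the highest share, 14.0% and 10.6%.

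A small number of barcodes that met the rule carried transcripts of other cells. In replicate 1, 6 members, and in replicate 2, 7 members, held 80 to 161 and 84 to 638 UMIs of 8 genes of fibroblasts, mural cells and endothelium (Col1a1, Col1a2, Col3a1, Bgn, Igfbp7, Tagln, Cldn5, Flt1). The other members held at most 1 and 2. These 13 barcodes passed the gate largely on Sparc, which such cells also make: their median was 19.5 and 47 UMIs of Sparc against 10 and 1 of the other 5 gate genes together. Barcodes of this kind were also among zero microglia, 197 of 5680 and 91 of 4918. Results that rest on them are given with and without them, a choice made after seeing the data.

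The label was checked over all members, the barcodes with stromal transcripts included. The 13 microglial genes outside the gate (among them Cx3cr1 and Csf1r) were all detected in members and summed to 9706 and 12074 counts per 1000000 UMIs of the summed cells (CPM), against 2023 and 1884 CPM in Ms4a7 macrophages and 12119 and 16582 CPM in zero microglia. Ms4a7 macrophages are the 4257 and 638 cells below the gate with at least 1 UMI of Ms4a7. The gate and Ms4a7 divide them from members, so the direction of these differences is set by the choice of cells. Of the 10 markers of monocyte-derived macrophages, all were detected in members, with a sum of 3508 and 2355 CPM. This was below the 33787 and 25643 CPM of Ms4a7 macrophages and above the 2425 and 1748 CPM of zero microglia. Of the 8 markers of border macrophages 6 were detected, at a sum of 149 and 74.7 CPM, with Cd163 and Lyve1 at 0 UMIs. In zero microglia these 8 summed to 149 and 45.3 CPM. T cell markers summed to 0 and 0.495 CPM.

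Ch25h was intronless in the annotation, with 1 exon on chr19:34473778-34475164 (GRCm38, minus strand). Cd5l lies on chr3:87357881-87371073 (plus strand). The 250 bases before the RefSeq start of each gene are shown because these are the genes that chose the cells. The RefSeq start of Ch25h lies a few bases inside the gene as given above, and positions below are counted from the RefSeq start. Both come from RefSeq (GRCm38.p6) and read 5′ to 3′ on the gene's own strand, from chr19:34475149-34475398 for Ch25h and chr3:87357631-87357880 for Cd5l. Capitals mark matches, on either strand, to 6 motifs searched: the PU.1 core GAGGAA, the NF-kB pattern GGGNNNNNCC, the AP-1 site TGANTCA, the interferon response pattern GAAANNGAAA, the LXR repeat GGTCANNNNGGTCA and the TATA box TATAAA.
Ch25h: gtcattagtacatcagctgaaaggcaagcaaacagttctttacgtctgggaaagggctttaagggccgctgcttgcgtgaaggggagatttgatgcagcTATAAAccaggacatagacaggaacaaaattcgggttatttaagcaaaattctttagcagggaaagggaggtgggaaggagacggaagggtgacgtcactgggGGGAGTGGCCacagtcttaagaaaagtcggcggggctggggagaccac
Cd5l: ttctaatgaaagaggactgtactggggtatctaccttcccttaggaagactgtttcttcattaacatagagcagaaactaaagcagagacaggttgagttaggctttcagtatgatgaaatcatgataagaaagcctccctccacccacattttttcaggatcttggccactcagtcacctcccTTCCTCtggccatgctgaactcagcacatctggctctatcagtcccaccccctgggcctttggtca

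In the Ch25h window the NF-kB pattern began 48 bases before the start and a TATAAA 151 bases before it. In the Cd5l window 1 PU.1 core, on the reverse strand, began 66 bases before the start. These matches do not overlap. Of 32851 promoters of the same length, 45.8% held the NF-kB pattern, 23.3% the PU.1 core, 12.4% TATAAA, 6.75% the AP-1 site, 2.98% the interferon pattern and 0.0457% the LXR repeat. A match is a description of letters and not a bound site.

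The 2 genes of the rule were used unequally by the libraries. Ch25h stood at 208 CPM (exact Poisson 95% interval 187 to 230) in members of replicate 1 and 248 CPM (227 to 271) in replicate 2. Cd5l stood at 272 CPM (248 to 297) and 40.6 CPM (32.3 to 50.4). Ch25h was similar in both, and Cd5l was lower in replicate 2 in every kind of cell named next. In Ms4a7 macrophages Cd5l was at 106 and 4.79 CPM, and in free RNA (barcodes under 100 UMIs) at 74.3 and 9.04 CPM. Ch25h was at 1.66 and 2.05 CPM in macrophages and at 10.99 and 15.9 CPM in free RNA. The levels in members are set by the rule. Over all gate microglia, without that choice, Ch25h stood at 20.5 and 17.8 CPM and Cd5l at 23.2 and 4.19 CPM, so Ch25h was higher there than in macrophages in both libraries and Cd5l was not.

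Free RNA can give a cell a UMI of a gene it does not express. Among neutrophil gate cells, which should lack both genes, 0 of 102 (a count of 0 allows a share of up to 2.94%) and 1 of 260 cells (0.385%) had a UMI of Ch25h, at median depths of 2696 and 2253.5 UMIs. For Cd5l these were 2 cells (1.96%) and 1 cell (0.385%). Among gate microglia, at median depths of 3574 and 5207 UMIs, 5.35% and 4.89% had Ch25h and 4.57% and 1.92% had Cd5l. Thinned to 2000 UMIs, Ch25h was found in 2.64% and 1.64% of gate microglia and in 0 of 65 (up to 4.62% allowed) and 0.575% of neutrophil gate cells. Cd5l after thinning was found in 2.75% and 0.633% against 0 of 65 and 0.575%, so in replicate 2 the thinned share with Cd5l was close to that of neutrophil gate cells. In T or NK gate cells, which should also lack both genes, median depths were 1548 and 3302 UMIs. Ch25h was found in 1.20% of 83 and 1.14% of 88 of them. Cd5l was found in 2.41% and in 0 of 88 (up to 3.41% allowed), and stood at 148 CPM in replicate 1. Thinned, 28 and 80 such cells were left, with Ch25h in 3.57% and 1.25% and Cd5l in 3.57% and 0 (up to 3.75% allowed). In replicate 1 both thinned shares were above those of gate microglia, on 28 cells.

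Most members held one of the genes without the other. On the Ch25h side (at least 2 UMIs of Ch25h and 0 of Cd5l) were 86 and 108 cells, on the Cd5l side 76 and 17 cells, and 45 and 17 cells held both. Cd5l was found in 13.4% and 6.61% of gate cells with Ch25h and in 4.07% and 1.68% of those without. After thinning to 2000 UMIs these were 7.44% and 2.41% against 2.62% and 0.604%, the latter pair on 9 and 2 cells with both genes. Co-detection was more frequent than in cells without Ch25h in both libraries, given as a description with no test.

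Members also lay near each other by genes outside the rule. Because the rule was written from clusters of these same cells, this nearness is a description and not independent evidence of a state. In 30 principal components of 2000 variable genes without the gate genes, 20.6% of the 15 nearest neighbours of a member were members in replicate 1 and 20.6% in replicate 2. For zero microglia these shares were 2.42% and 1.41%, and members made up 3.31% and 2.70% of the cells compared. Among zero microglia within the middle of the members' depth (between their quartiles) the shares were 5.31% and 4.57%, against 23.2% and 22.6% for members in that range. Cells with 1 UMI lay between, at 9.81% and 9.65%. The 17 cells of the Cd5l side in replicate 2 were the exception, with 5.49% member neighbours.

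The remaining 4 marker genes of this cell type are not part of the count rule, but they were named for it from clusters of these same cells. Their levels are given here as a description. Where these genes are tested below, a pass is not independent evidence of a state. Igf1, insulin-like growth factor 1, stood at 497 and 163 CPM in members, at 280 and 119 CPM in gate cells with 1 UMI and at 102 and 33.4 CPM in zero microglia. Cd72, a receptor with inhibitory motifs known from B cells, stood at 241 and 254 CPM in members, 132 and 175 CPM in cells with 1 UMI and 67.3 and 48.2 CPM in zero microglia. Among the sets just named, both genes were highest in members and lowest in zero microglia in each library. Ms4a7 microglia, which met the gate except for holding at least 1 UMI of Ms4a7, held Igf1 at 312 and 177 CPM. They held Cd72 at 86.9 and 134 CPM. In replicate 2 Igf1 was therefore not higher in members than in Ms4a7 microglia.

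Cst7, which encodes the cysteine protease inhibitor cystatin F, stood at 185 and 296 CPM in members, 186 and 230 CPM in cells with 1 UMI and 98.4 and 66.3 CPM in zero microglia. Fabp3, a fatty acid binding protein, stood at 86.4 and 78.7 CPM in members, 74.8 and 45.7 CPM in cells with 1 UMI and 30.6 and 13.5 CPM in zero microglia. In replicate 1 members and cells with 1 UMI did not differ beyond counting error in Cst7 and Fabp3. Ms4a7 microglia held Cst7 at 78.0 and 88.7 CPM and Fabp3 at 71.5 and 48.6 CPM. Cycling microglia held them at 147 and 173 CPM and at 52.0 and 36.3 CPM. In Ms4a7 macrophages Cst7 was at 5.83 and 6.84 CPM and Cd72 at 20.6 and 45.7 CPM, below zero microglia, while Igf1 (270 and 91.3 CPM) and Fabp3 (78.8 and 38.8 CPM) were above them. Free RNA of these genes ranged from 26.7 to 199.8 CPM over the libraries.

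**Figure D2:**
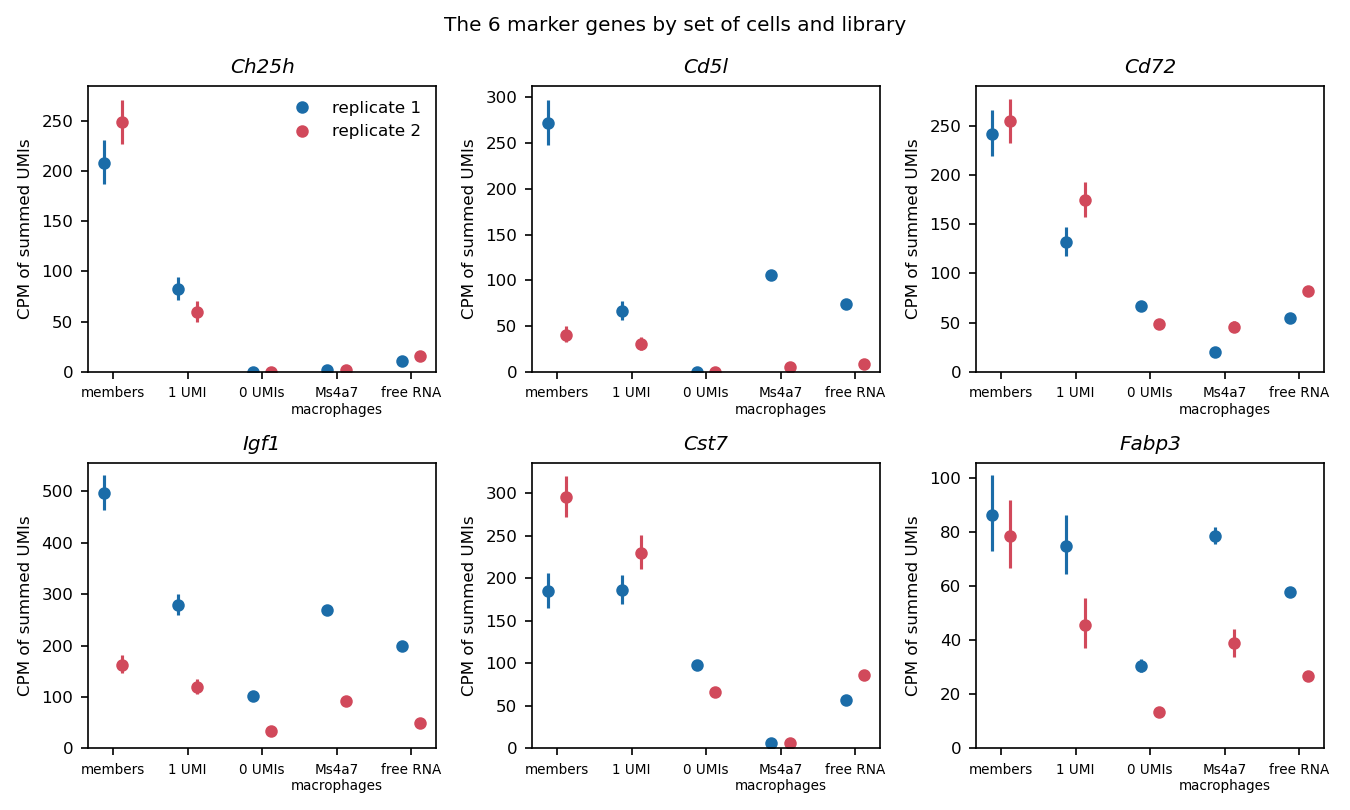
CPM (y axis) of the 6 marker genes in members, gate cells with 1 and with 0 UMIs of Ch25h and Cd5l, Ms4a7 macrophages and free RNA, by library, with exact Poisson 95% intervals where drawn. The steps from members to zero cells in Ch25h and Cd5l are set by the rule; Cst7 was at 5.83 and 6.84 CPM in Ms4a7 macrophages against 185 and 296 CPM in members.

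Not every member held every marker. In replicate 1, Igf1 was found in 77.3% of members, Cd72 in 64.7%, Cst7 in 57.0% and Fabp3 in 41.1%. In replicate 2 these were 52.8%, 76.1%, 70.4% and 45.1%. In zero microglia, which are shallower, the shares ranged from 5.85% to 21.3%. No single member held more than 8.21% of a marker's UMIs among these 4 genes.

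Genes outside the gate were compared between members and zero microglia on UMIs summed per library, with edgeR's quasi-likelihood test and Benjamini-Hochberg adjustment over all tested genes. Because the gate was written from clusters of these cells, an adjusted p here says how well a difference repeated between 2 libraries and is not independent evidence of a state. Of 11184 genes tested 1639 passed an adjusted p of 0.05, or 14.7%: 964 higher in members (8.62%) and 675 lower (6.04%). At equal depth 818 genes passed, of which 662 were among the 1639. Without the barcodes with stromal transcripts 1898 passed, and 880 with both changes. Without the library as a block 382 passed.

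The genes with the largest rise were a chemokine, an adaptor of actin, secreted factors and marker genes of the state. Cxcl14 stood at 53.0 and 32.7 CPM in members and at 10.6 and 3.19 CPM in zero microglia, a log2 fold change of 2.90 (SE 0.29, adjusted p = 0.00129 with edgeR). Baiap2l2, an adaptor that bends membranes, stood at 29.9 and 51.5 CPM against 8.16 and 5.74 CPM (2.69, SE 0.31, adjusted p = 0.00149 with edgeR). Spp1, osteopontin, stood at 7756 and 1681 CPM against 1126 and 457 CPM (2.57, SE 0.29, adjusted p = 0.00137 with edgeR). Members were above zero microglia of their own library in each case. Spp1 was more than 4 times higher in members of replicate 1 than of replicate 2, a larger gap than that between zero microglia of the libraries. High Spp1 was not particular to members. It stood at 7583 and 4313 CPM in Ms4a7 microglia and at 2892 and 1181 CPM in cycling microglia.

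Ctla2a, Fam20c, Igf1, Cd72 and Fabp3 made up the rest of the 8 largest, with log2 fold changes of 2.35, 2.24, 2.45, 2.24 and 2.18. At equal depth these 8 were at 2.26 (Cxcl14), 2.24 (Baiap2l2), 1.73 (Spp1), 1.96 (Ctla2a), 1.78 (Fam20c), 1.76 (Igf1), 1.90 (Cd72) and 1.86 (Fabp3), so the differences were smaller and kept their direction. Fam20c encodes the Golgi kinase that phosphorylates secreted proteins, osteopontin among them. It stood at 47.8 and 50.5 CPM in members and 16.0 and 8.19 CPM in zero microglia.

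Of 26 genes of disease-associated microglia, 25 were tested, and 15 rose in members with 0 lower. Among the 15 are Igf1, Cd72 and Cst7, which were named as markers from clusters of these same cells. The median log2 fold change of the 25 was 0.83, beside -0.04 over all genes tested. At equal depth 14 rose, and 12 once stromal barcodes were left out as well. Apoe rose from 30520 and 18248 CPM in zero microglia to 47120 and 28182 CPM (0.79, SE 0.10), Lpl (lipoprotein lipase) from 181 and 92.0 to 537 and 414 CPM (2.04, SE 0.33), and Ctsb (cathepsin B) from 2818 and 2186 to 5398 and 4283 CPM (1.12, SE 0.14). Members of each library were above zero microglia of both libraries for Lpl and Ctsb. For Apoe the members of replicate 2 were below the zero microglia of replicate 1. Apoe was higher in Ms4a7 microglia than in members, at 69102 and 49416 CPM, and lower in cycling microglia, at 28936 and 18134 CPM. Trem2, the lipid receptor upstream of this state, stood at 2445 and 2912 CPM against 2588 and 2930 CPM and did not pass (adjusted p = 0.771 with edgeR). Itgax and Axl did not pass either.

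Genes of lipid uptake and storage were counted next: of 21 tested, 9 rose and 0 fell. The 9 include Fabp3, also named as a marker from clusters of these cells. At equal depth 7 rose, and 6 once stromal barcodes were left out as well, when Soat1 and Lipa did not pass. Plin2, which coats lipid droplets, stood at 909 and 339 CPM in members and 237 and 120 CPM in zero microglia (1.90, SE 0.15, adjusted p = 0.000924 with edgeR). Msr1, a scavenger receptor for modified lipoproteins, stood at 57.6 and 24.7 CPM against 18.5 and 7.72 CPM (1.83, SE 0.30, adjusted p = 0.00463 with edgeR). Soat1, which esterifies cholesterol for storage, rose by 0.77 (SE 0.13), Lipa, the acid lipase of lysosomes, by 0.82 (SE 0.19) and Npc2, which carries cholesterol out of lysosomes, by 0.45 (SE 0.08). Cd36 stood at 21.3 and 2.97 CPM against 12.2 and 1.31 CPM and did not pass (adjusted p = 0.0746 with edgeR).

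The oxysterol and LXR list, which holds the genes downstream of the Ch25h product, moved little outside the apolipoproteins. Of 17 tested, 3 rose (Apoe, Apoc1 and Apoc4) and 1 fell (Cyp27a1, which makes 27-hydroxycholesterol). At equal depth 3 rose and 0 fell, and without stromal barcodes as well 2 rose (Apoe and Apoc4). The cholesterol exporters Abca1 (369 and 209 CPM in members, 321 and 206 CPM in zero microglia) and Abcg1 (135 and 99.5 CPM against 121 and 102 CPM) did not pass. Gpr183, the receptor for oxysterols made from 25-hydroxycholesterol, stood at 93.9 and 88.1 CPM against 99.7 and 130 CPM and did not pass. Of 17 genes of sterol synthesis 0 passed with edgeR and 0 with DESeq2, and 0 were at an unadjusted p under 0.05 with either.

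Of 27 lysosomal genes 13 rose and 0 fell, with 13 higher at equal depth and 10 without stromal barcodes as well. Cd68, a lysosomal membrane glycoprotein, stood at 1258 and 1071 CPM in members and 726 and 728 CPM in zero microglia (0.83, SE 0.10, adjusted p = 0.00178 with edgeR), and Gla, alpha-galactosidase, rose by 1.12 (SE 0.12). Of 18 genes of oxidative phosphorylation 16 rose and 0 fell, with 12 higher at equal depth, with or without stromal barcodes. Of 15 genes of glycolysis and hypoxia 9 rose, among them Ldha (373 and 521 CPM against 207 and 223 CPM) and Gapdh (1907 and 2364 CPM against 1052 and 1061 CPM), and 1 fell, Hk2, which starts glycolysis (239 and 218 CPM against 361 and 362 CPM). At equal depth 9 rose and 1 fell, and 8 and 1 without stromal barcodes as well.

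Genes of early activation were lower in members. Of 20 tested, 0 rose and 9 fell. At equal depth 2 fell, and 7 once stromal barcodes were left out as well. Klf2, a transcription factor that restrains inflammation, stood at 430 and 439 CPM in members and 788 and 999 CPM in zero microglia (-0.86, SE 0.14, adjusted p = 0.00371 with edgeR). Hspa1a, a heat shock protein whose reads may be shared with Hspa1b, stood at 90.4 and 73.3 CPM against 294 and 473 CPM (-1.99, SE 0.40, adjusted p = 0.0100 with edgeR). Fos did not pass. Such genes can be induced while tissue is dissociated, and the part of dissociation was not tested.

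Homeostatic microglial genes were also lower. Of 13 outside the gate 0 rose and 8 fell, among them Cx3cr1 (1484 and 1324 CPM against 2035 and 2087 CPM), Csf1r (869 and 961 against 1385 and 1494 CPM), P2ry13 and Sall1. At equal depth 3 fell and 1 rose. At equal depth without stromal barcodes, which are frequent among deep zero microglia, 7 fell and 0 rose. Cx3cr1 had a log2 fold change of -0.16 (adjusted p = 0.421 with edgeR) in the former and of -0.38 (adjusted p = 0.0468 with edgeR) in the latter. The gate genes themselves are not tested: P2ry12 stood at 293 and 454 CPM in members and 706 and 1278 CPM in zero microglia.

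Inflammatory genes gave few calls. Of 22 inflammatory and NF-kB genes 0 rose and 1 fell, Il1a (158 and 144 CPM against 286 and 257 CPM), which did not pass at equal depth (adjusted p = 0.0919 with edgeR) and passed there without stromal barcodes (adjusted p = 0.0188 with edgeR). Tnf stood at 385 and 291 CPM against 413 and 292 CPM. Of 19 interferon genes 1 rose, Bst2 (tetherin; 599 and 743 CPM against 504 and 449 CPM). Of 16 chemokines 1 rose, Cxcl14.

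The remaining lists gave 0 to 5 calls each, to be read beside the 14.7% of all genes. Of 15 genes of efferocytosis and scavenging 3 rose (Msr1, Gas6 and the scavenger receptor Stab1) and 0 fell, with 2 at equal depth, when Gas6 did not pass, and Mertk, a receptor for dying cells, stood at 122 and 114 CPM against 175 and 187 CPM and did not pass (adjusted p = 0.0939 with edgeR). Of 12 complement genes 3 rose, the anaphylatoxin receptors C3ar1 (274 and 202 CPM against 200.1 and 183 CPM) and C5ar1 and the integrin subunit Itgb2. At equal depth 2 of these did, without C5ar1. Of 16 genes of growth factors and matrix 4 rose (Igf1, Spp1, Gas6 and Mmp12) and 1 fell, Pdgfb (108 and 92.1 CPM against 175 and 179 CPM). Igf1 is again a marker named from these cells. At equal depth Gas6, Mmp12 and Pdgfb did not pass, and Pdgfb passed once stromal barcodes were left out as well. Of 14 genes of iron and oxidative stress 3 rose (Prdx1, Ftl1 and Txnrd1), and at equal depth 2, without Txnrd1. Of 15 genes of antigen presentation 0 passed with edgeR and 0 with DESeq2, with 2 and 1 at an unadjusted p under 0.05, whereas at equal depth 3 were lower.

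The largest fall belonged to Ptgds, prostaglandin D synthase of the meninges, at 1.73 and 0 CPM in members and 163 and 11.8 CPM in zero microglia. It rests on few cells: in zero microglia 74 and 20 cells held its UMIs, with 30.1% and 82.1% of them in a single cell. Without the barcodes with stromal transcripts its log2 fold change was -3.24 and did not pass (adjusted p = 0.153 with edgeR). Adgrg1, an adhesion receptor of resident microglia, stood at 36.3 and 42.1 CPM against 115 and 151 CPM (-1.60, SE 0.26, adjusted p = 0.00389 with edgeR). Clec4a2, Tns1, Agmo and Tle3 fell by 1.66, 1.47, 1.47 and 1.44 on the log2 scale. At equal depth Clec4a2 (adjusted p = 0.185 with edgeR) did not pass, with or without stromal barcodes, and Agmo (-0.96, adjusted p = 0.0741 with edgeR) passed only without them.

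**Figure D3:**
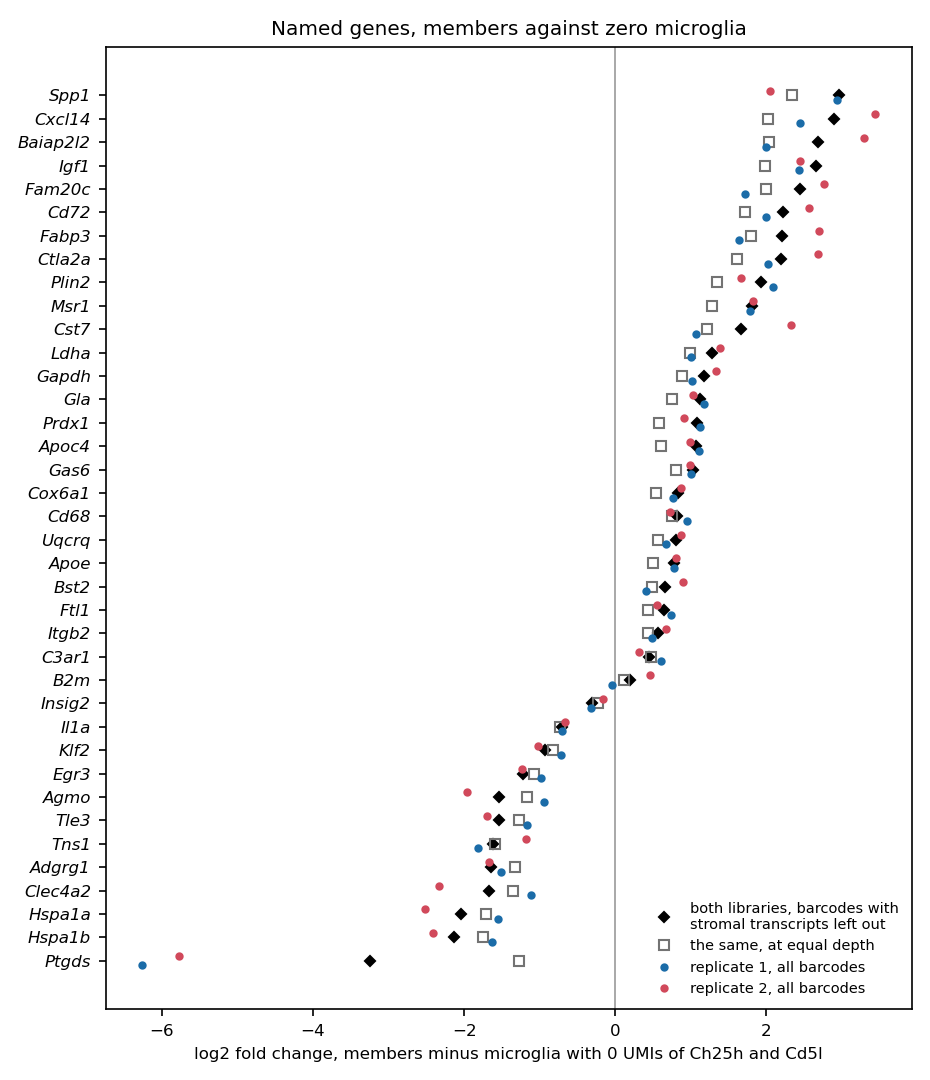
Log2 fold change (x axis) of the named genes (y axis) between members and zero microglia, in each library with all barcodes, over both libraries without barcodes with stromal transcripts, and the same at equal depth. Cxcl14, Spp1, Igf1 and Cd72 lie on the right and Hspa1a and Adgrg1 on the left under each setting; Ptgds stood at -6.57 with all barcodes and at -1.28, which did not pass, with both changes.

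Levels were also read in cells thinned to 2000 UMIs, which removes depth, in steps of the thinned sum of Ch25h and Cd5l. In replicate 1, Igf1 stood at 1.07 UMIs per 10000 in 4345 cells with 0 UMIs, at 3.96 in 178 cells with 1 and at 5.29 in 51 cells with 2 to 3. In replicate 2 it stood at 0.242 in 4944 cells with 0 and at 1.38 in 98 cells with 1. Spp1 stood at 10.5, 40.2 and 69.4 in replicate 1 and at 3.19 and 18.2 in replicate 2 over these steps. Apoe stood at 333, 503 and 607 in replicate 1 and at 154 and 330 in replicate 2. These 3 genes were higher in cells with 1 UMI than in cells with 0 in both libraries.

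Cx3cr1 was lower, at 14.7 UMIs per 10000 in cells with 1 against 19.4 in cells with 0 in replicate 1 and at 14.6 against 23.3 in replicate 2. Cst7 stood at 1.91 against 1.01 and at 2.40 against 0.604, and was at 1.67 in the 51 cells with 2 to 3 of replicate 1. The steps above this hold too few cells to read, 9 cells in replicate 1 and 12 and 3 in replicate 2.

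**Figure D4:**
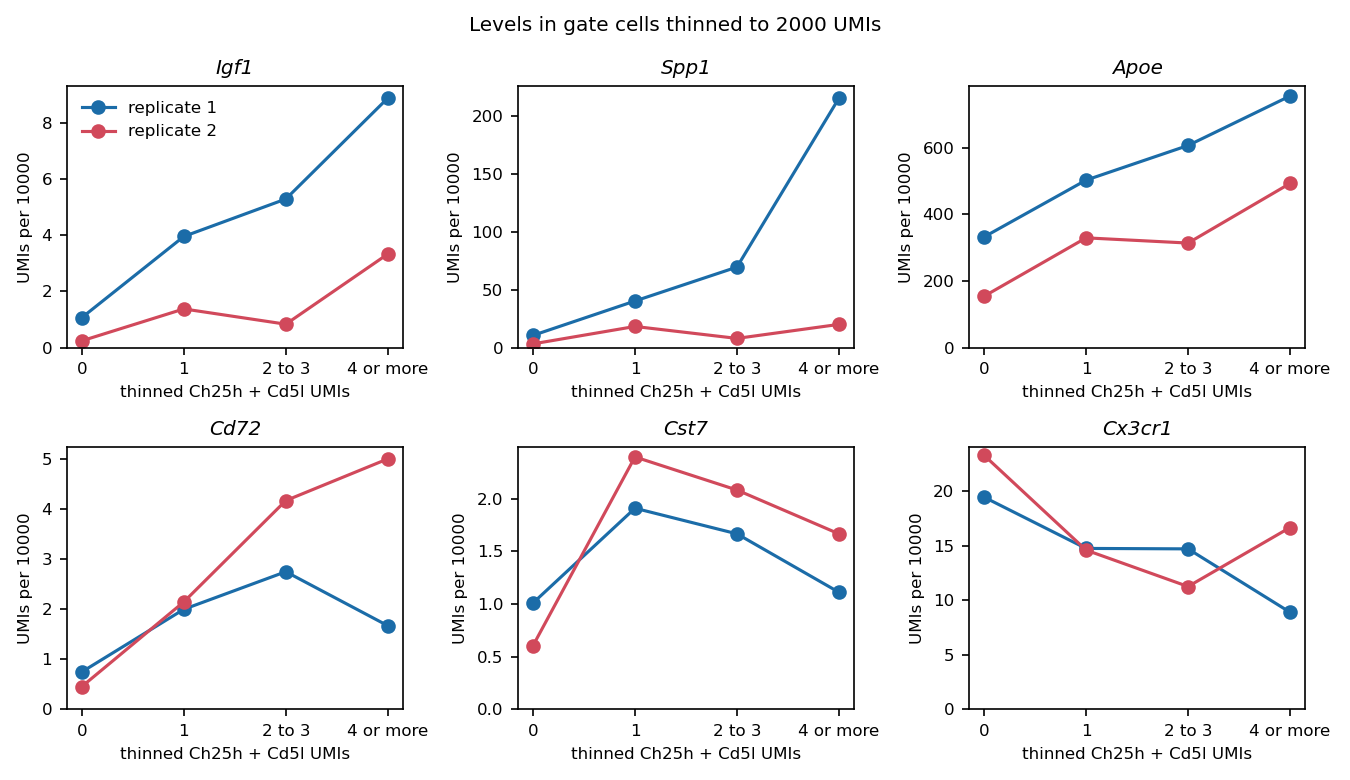
UMIs per 10000 (y axis) of 6 genes in gate cells thinned to 2000 UMIs, by thinned Ch25h and Cd5l UMIs (x axis) and library. Igf1, Spp1, Apoe, Cd72 and Cst7 were higher and Cx3cr1 lower in cells with 1 UMI than with 0 in both libraries; the steps of 4 or more hold 9 and 3 cells and that of 2 to 3 holds 12 in replicate 2.

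Members were set against Ms4a7 macrophages in the same fit. Of 11184 genes 3554 passed, or 31.8%: 1810 higher in members (16.2%) and 1744 lower (15.6%). With the 2 sets alone in the fit 1633 passed, and with at least 4 UMIs of Ch25h and Cd5l 2323. Ms4a7 and the microglial gate divide the groups, so the direction of microglial and macrophage genes is set by the choice of cells: all 13 microglial genes were higher and 9 of 10 markers of monocyte-derived macrophages lower.

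Of the 8 genes with the largest difference upward, 7 were Igfbp7, Col18a1, Col4a2, Tagln, Col1a1, Col1a2 and Bgn, genes of vessel walls and fibroblasts. Col1a1 stood at 84.1 and 204 CPM in members and at 1.40 and 0.684 CPM in macrophages, but 7 and 6 member cells held all of its UMIs. Without the barcodes with stromal transcripts these 7 genes were under the filter on low counts and were not tested. The genes then highest above macrophages were Baiap2l2 (6.19, SE 0.45), Nav3 (5.32, SE 0.34), Jam2 (5.30, SE 0.24), Adamts1 (5.14, SE 0.34) and Cst7 (5.07, SE 0.30).

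Cst7 and Cd72 were higher in members than in macrophages, by 4.95 (SE 0.28) and 2.72 (SE 0.29) with all barcodes. Fabp3 stood at 86.4 and 78.7 CPM in members and 78.8 and 38.8 CPM in macrophages, a difference of 0.28 (SE 0.23), and Igf1 at 497 and 163 against 270 and 91.3 CPM, a difference of 0.57 (SE 0.19). The differences were larger for Cst7 and Cd72 than for Igf1 and Fabp3.

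Genes of lipid handling were lower in members than in macrophages, although the 9 that differed from zero microglia were higher in members. Of 21 genes of lipid uptake and storage 0 were higher and 12 lower. Fabp5, a fatty acid binding protein, stood at 1151 and 513 CPM in members and 7802.5 and 3574 CPM in macrophages (-3.06, SE 0.17, adjusted p = 1.32e-06 with edgeR), with 491 and 218 CPM in zero microglia. Cd36 had a log2 fold change of -4.76 (SE 0.32). Apoe stood at 47120 and 28182 CPM against 117306 and 65320 CPM (-1.55, SE 0.10). Of 14 genes of iron and oxidative stress 0 were higher and 10 lower, among them Ftl1, ferritin light chain (11527 and 7607 CPM against 27960 and 28258 CPM).

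Chemokines and growth factors held genes called in each direction between members and macrophages, to be read beside 16.2% higher and 15.6% lower over all genes. Of 16 chemokines 3 were higher in members (Ccl4, Ccl3 and Ccl12) and 4 lower (Pf4, Cxcl3, Ccl7 and Ccl6). These chemokine counts are close to the shares over all genes. Of 16 genes of growth factors and matrix 6 were higher, Csf1 and Pdgfb among them, and 5 lower (Mmp14, Vegfa, Spp1, Gdf15 and Mmp12). Examples of the higher genes are Ccl4 (3877 and 3489 CPM against 483 and 746 CPM), Ccl3 (1555 and 1530 against 351 and 536 CPM) and Csf1 (116 and 115 against 10.8 and 15.6 CPM). Pdgfb was higher by 2.52 (SE 0.15). Pros1, protein S, was higher by 3.16 (SE 0.19). The genes furthest below were the coagulation factors F7 and F10, Runx3, Arg1 (arginase), Acp5, Clec12a, Pf4 and the immunoglobulin gene Igkc. Igkc rests on macrophages of replicate 1, at 113 CPM against 1.54 CPM in replicate 2, and did not pass with members of at least 4 UMIs (adjusted p = 0.102 with edgeR). Arg1 stood at 6.33 and 0.495 CPM in members and 145 and 522 CPM in macrophages.

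The sides of the members were compared last. The rule uses the sum of Ch25h and Cd5l and not which gene gave it, so this difference was not chosen. Of 6653 genes 13 passed, or 0.195%: 8 higher on the Ch25h side (0.12%) and 5 higher on the Cd5l side (0.0752%). The Cd5l side of replicate 2 holds 17 cells. With the 2 sides alone in the fit edgeR called 0 genes, with 268 at an unadjusted p under 0.05, and DESeq2 called 33 in the fit of all sets. At equal depth 4 passed, without the library as a block 1, and without the barcodes with stromal transcripts 57, the 13 among them. Of those barcodes 5 and 6 were on the Ch25h side and 0 and 1 on the Cd5l side.

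Of these 8 genes higher on the Ch25h side, 5 were chemokines, of 15 tested. Ccl12, which attracts monocytes, stood at 1783 and 1643 CPM on the Ch25h side and 229 and 397 CPM on the Cd5l side (2.45, SE 0.25, adjusted p = 0.00338 with edgeR). Ccl12 was higher on the Ch25h side in each library and passed also at equal depth (2.32, adjusted p = 0.00671 with edgeR). Ccl5 stood at 266 and 104 CPM against 34.8 and 19.2 CPM (2.64, SE 0.35, adjusted p = 0.0124 with edgeR). Its UMIs lay in few cells: 14 and 14 cells of the Ch25h side held them, and 55.5% and 47.3% were in a single cell. The Cd5l side of replicate 2 held 3 UMIs of Ccl5, in 1 cell.

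Cxcl10 stood at 498 and 468 CPM against 174 and 173 CPM (1.40, SE 0.19, adjusted p = 0.0124 with edgeR). Cxcl2 stood at 1146 and 626 CPM against 408 and 224 CPM. Ccl6 stood at 158 and 235 CPM against 49.5 and 64.1 CPM. Cxcl10, Cxcl2 and Ccl6 were each higher on the Ch25h side in both libraries. The other 3 were Tnf (505 and 311 CPM against 201 and 64.1 CPM), the interferon-induced Ifit3 (135 and 109 CPM against 29.3 and 25.6 CPM) and Ank, which exports pyrophosphate (69.9 and 88.9 CPM against 14.7 and 12.8 CPM). Their values on the Cd5l side of replicate 2 rest on few UMIs: 10 of Tnf, 4 of Ifit3 and 2 of Ank. Ccl6 had 10 UMIs there. At equal depth Ccl12 passed and the other 7 of these 8 did not.

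Without the barcodes with stromal transcripts, 8 of 15 chemokines and 6 of 19 interferon genes were higher on the Ch25h side and 0 lower, with medians of 1.44 and 1.15 beside 0.00 over all genes. Ccl9 (86.5 and 164 against 29.3 and 22.3 CPM) and Ifit1 (123 and 31.1 against 7.33 and 7.44 CPM) were added to those above. On the Cd5l side these values rest on 16 and 3 UMIs of Ccl9 and on 4 and 1 of Ifit1. Ccl7 turned with this choice. With all barcodes it stood at 63.5 and 104 CPM on the Ch25h side and 7.33 and 718 CPM on the Cd5l side (-1.56, SE 0.91, adjusted p = 0.721 with edgeR), and the 112 UMIs of the Cd5l side of replicate 2 all lay in the 1 barcode left out there. Without stromal barcodes it stood at 64.8 and 76.6 CPM against 7.33 and 0 CPM and passed (3.66, adjusted p = 0.000191 with edgeR). Cst7 was then higher on the Ch25h side too, by 1.21 (SE 0.30, adjusted p = 0.0152 with edgeR), with 244 and 321 CPM against 117 and 128 CPM with all barcodes.

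On the Cd5l side the higher genes were Apoe, Gpnmb, Wfdc17, Pla2g7 and Gdf15. Apoe stood at 69003 and 49920 CPM on the Cd5l side and 33837 and 24363 CPM on the Ch25h side, a difference of -1.13 (SE 0.18, adjusted p = 0.0289 with edgeR) as Ch25h side minus Cd5l side. Wfdc17, a secreted inhibitor-like protein of macrophages, stood at 637 and 282 CPM against 163 and 93.2 CPM (-1.91, SE 0.21, adjusted p = 0.00408 with edgeR). It was found in 66 of 76 and 16 of 17 cells of the Cd5l side and in 45 of 86 and 46 of 108 cells of the Ch25h side, and it passed at equal depth.

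The other 3 rest on few UMIs in replicate 2. Gpnmb, a lysosomal glycoprotein of lipid-laden macrophages, stood at 429 and 38.5 CPM against 95.3 and 3.07 CPM (-2.55, SE 0.30, adjusted p = 0.00572 with edgeR), on 6 UMIs in 3 cells of the Cd5l side of replicate 2. Pla2g7, a lipoprotein-associated phospholipase, stood at 78.8 and 44.9 CPM against 17.8 and 4.90 CPM, on 7 UMIs there. Gdf15, a stress cytokine, stood at 211 and 115 CPM against 54.7 and 46.6 CPM, and all of its 18 UMIs there came from 1 cell. Spp1 stood at 12564 and 5077 CPM against 3249 and 1433 CPM and did not pass in the main analysis (adjusted p = 0.079 with edgeR). On the Cd5l side of replicate 1, 25.4% of its UMIs lay in a single cell. At equal depth, with stromal barcodes kept, Spp1 passed (-2.53, adjusted p = 0.0438 with edgeR). Without the stromal barcodes it passed, lower on the Ch25h side by 2.04 (SE 0.25).

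Macrophage markers were read on both sides. Of 8 markers of monocyte-derived macrophages tested 0 passed with edgeR and 0 with DESeq2 (3 and 2 at an unadjusted p under 0.05), with a median log2 fold change of 0.04. Without stromal barcodes 1 was higher and 2 lower on the Ch25h side. The sum of all 10 was 4487 and 2570 CPM on the Cd5l side and 2980 and 2294 CPM on the Ch25h side, against 33787 and 25643 CPM in Ms4a7 macrophages. On the Cd5l side all 10 were detected in replicate 1 and 8 in replicate 2. The 8 border macrophage markers summed to 209 and 83.3 CPM against 86.4 and 58.2 CPM. Wfdc17 in macrophages was at 3231 and 1131 CPM, Gpnmb at 3138 and 866 CPM and Pla2g7 at 408 and 408 CPM, above either side. The part of macrophage RNA in the genes higher on the Cd5l side was not tested. Microglial genes outside the gate summed to 9253 and 13044 CPM on the Cd5l side and 9959 and 11990 CPM on the Ch25h side.

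Of the 4 markers not in the rule, 0 passed between the sides with edgeR or with DESeq2 on all barcodes, and 3 were at an unadjusted p under 0.05. With no filter on low counts Cst7 (1.22, adjusted p = 0.000108 with edgeR) and Cd72 (0.88, adjusted p = 0.0317 with edgeR) passed. Igf1 stood at 384 and 143 CPM on the Ch25h side and 669 and 205 CPM on the Cd5l side. Cd72 stood at 239 and 260 CPM against 169 and 83.3 CPM. Fabp3 stood at 89.0 and 84.0 CPM against 80.6 and 19.2 CPM, the last on 3 UMIs. With the filter these differences did not pass (adjusted p = 0.276 for Igf1, 0.434 for Cd72 and 0.767 for Fabp3 with edgeR). Igf1 was higher on the Cd5l side and Cd72 on the Ch25h side in each library, and for Fabp3 the sides of replicate 1 did not differ beyond counting error.

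**Figure D5:**
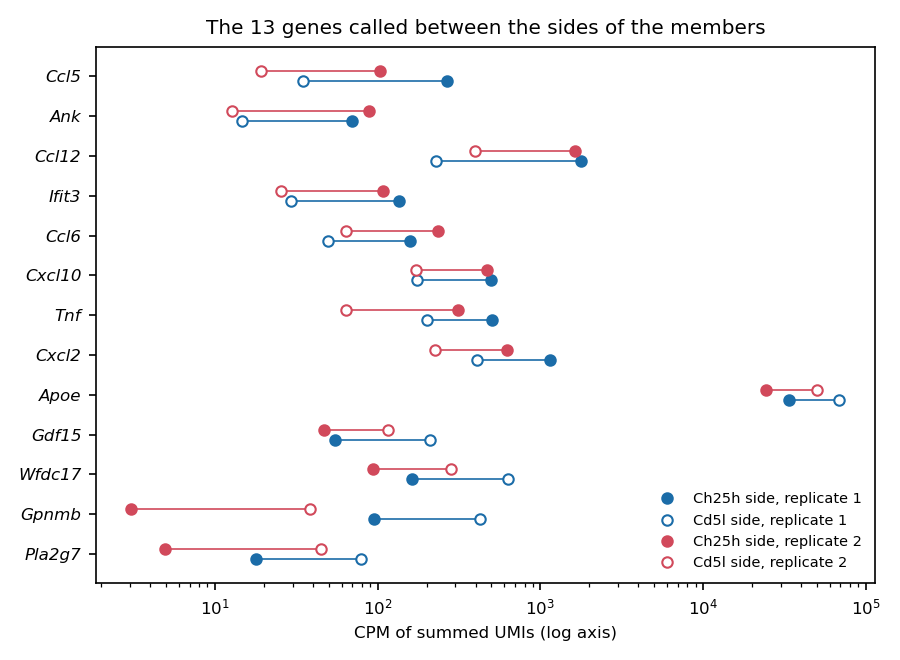
CPM (log x axis) of the 13 genes that passed between the sides, on the Ch25h side (filled) and the Cd5l side (open) of each library. The 8 upper genes lie higher on the Ch25h side and the 5 lower ones on the Cd5l side in both libraries; the Cd5l side of replicate 2 rests on 17 cells.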

How the data were processed

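The deposited values are raw UMI counts per gene and barcode for 2 libraries. Per the file headers Cell Ranger 4 wrote them. Seurat 4, Cell Ranger 4.0.0 and STAR 2.5.1b stand in the submitters' processing notes, beside the builds mm10, GRCm38 and GRCh38. Their roles and the counting of reads of near-identical genes are not given in the sources used here. All barcodes of the kit are in the files, and cells were called as described above.

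The members, markers and lists (14 of cell types, 16 of functions) were chosen with earlier results of these data known. UMIs were summed per library and set of cells. The tests used edgeR 4.0.16 (R 4.3.3; TMM, filterByExpr, glmQLFit, glmQLFTest, Benjamini-Hochberg at 0.05), without the 15 genes of the gate and the mitochondrial genes. Members, cells with 1 UMI, zero microglia, Ms4a7 microglia, cycling microglia and Ms4a7 macrophages entered 1 fit of 6 sets, and the sides, the cells with both genes and zero microglia 1 fit of 4. Library was a block, because every library holds each set compared, which left 5 and 3 residual degrees of freedom. CPM are per 1000000 UMIs of a sum. The scripts were tested on simulated data, with a spread that was set and not taken from these libraries. Of simulated 2-fold changes 18.8% passed between members and zero microglia, 12.4% against macrophages and 14.4% between the sides. For 4-fold changes these were 85.9%, 80.0% and 72.4%. A gene that did not pass may therefore still differ.

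Named genes were the 8 largest and 8 smallest log2 fold changes (6 and 6 for the sides) among genes that passed with the same sign in both libraries and a mean of at least 20 CPM, without ribosomal and unnamed genes, together with the 6 markers. From each function list came the 2 called genes with the smallest p, or the most abundant gene where none was called. Not every gene that these rules name is reported here. Other genes were named from the lists after their values were seen, as were the genes given without stromal barcodes.

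Alternatives were DESeq2 1.42.0, no filter on low counts, no block, the 2 sets alone, at least 2000 UMIs per cell, at least 4 UMIs of Ch25h and Cd5l, equal depth (cells drawn to the members' UMI distribution, at most 5 zero cells per member), each library alone, and Scrublet (scanpy 1.11.5) with the top-scoring 0.8% per 1000 cells left out. In the main analysis no doublets were removed. Members were 9.18% and 5.63% among the top doublet scores and zero microglia 5.23% and 3.94%. In cells of at least 10000 UMIs these shares were 19.2% and 5.83% against 26.5% and 14.0%. Leaving out stromal barcodes (at least 10 UMIs of 8 genes) and thinning of Ch25h and Cd5l alone were added after seeing the data. Coordinates come from GENCODE vM21 (GRCm38), which held 99.6% of the 31053 gene IDs.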

Additional observations from a re-analysis of the deposited data

How the results depend on the processing

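The 2 libraries, the 17 cells of the Cd5l side in replicate 2 and the unequal depth of members and zero microglia limit these results. Of the genes chosen by the naming rule, none that passed in the main analysis changed sign under any alternative run. Some that did not pass changed sign, such as Fth1 between the sides (-0.16 over both libraries and 0.23 in replicate 2 alone). Outside the genes of the naming rule, Ccl7 between the sides was -1.56 with all barcodes and 3.66 without stromal barcodes. Of 10 markers of monocyte-derived macrophages, 2 were higher and 0 lower in members than in zero microglia, and 0 and 2 at equal depth. Against zero microglia, DESeq2 called 442 genes lower. With no replicate block 382 genes were called, 213 higher and 169 lower. At equal depth 818 were called, 538 higher and 280 lower, and with stromal barcodes left out as well 880, 515 higher and 365 lower. Against Ms4a7 macrophages, the 2 sets alone gave 1633 genes, 952 higher and 681 lower, and at least 4 UMIs of Ch25h and Cd5l gave 2323, 1144 higher.

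Between the sides DESeq2 called 33 genes, 17 higher and 16 lower on the Ch25h side. With no filter on low counts 89 were called, 65 higher and 24 lower. With no replicate block 1 was called, higher, and 0 lower, and the 2 sides alone gave 0 by edgeR, 0 higher and 0 lower, with 268 at an unadjusted p under 0.05. At equal depth 4 were called, 1 higher and 3 lower. Without stromal barcodes 57 were called, 34 higher and 23 lower. The block changed the count against Ms4a7 macrophages by less than 1.5 times, to 2711. The cause of these differences was not tested.

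The share of members in gate cells was 4.45% in replicate 1 among cells of at least 2000 UMIs. It was 1.98% and 0.519% with cells thinned to 2000 UMIs before the whole rule, and 1.31% and 0.297% with Ch25h and Cd5l alone thinned. Of the named genes, 20 against zero microglia lost their call with no replicate block, Spp1 (adjusted p = 0.0742) and Apoe (adjusted p = 0.318, both with edgeR) among them, and 11 of those between the sides.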
